A study of Homo sapiens with 8 samples.

Results

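The SP family comprises 9 genes, SP1 to SP9, out of 20163 protein-coding genes in the annotation used. The members were taken by name. For each gene, every interval of the 4 deposited G4 ChIP-seq lists that shared at least 1 bp with the gene body, or with the 1 kb upstream of any of its annotated transcription start sites (TSSs), was collected with its position, width and sequence. These windows covered 289987 bp on hg19 and held 50 intervals in all, 28 of K562 and 22 of HepG2, where a stretch present in both lists of a line counts in each.

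Endogenous G4s were mapped with the G4 structure-specific antibody BG4 in formaldehyde cross-linked chromatin of 2 established human lines, K562 (a chronic myelogenous leukemia) and HepG2 (a hepatocellular carcinoma), both grown asynchronously and without treatment. Per line the labels name 3 libraries of G4 ChIP and 1 of input, while the authors merged peaks of 8 K562 and 9 HepG2 replicates. These are technical replicates of fewer independent experiments, so support from several of them is not support from as many experiments. In the paper, 3 independent experiments per line had 2 to 3 technical replicates each. Its methods add that earlier K562 data were also considered, and name no such addition for HepG2. The high confidence lists hold 9205 stretches seen in at least 5 of 8 replicates in K562 and 8805 seen in at least 6 of 9 in HepG2. With support from 2 replicates asked for, the lower confidence lists hold 19249 and 28387 stretches. An interval carries a chromosome, a start and an end, with no height, no q-value and no value per replicate, so depth and replicate spread are unknown, no test between the lines was possible, and the identity of the lines could not be checked against marker genes.

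SP proteins share C2H2 zinc fingers that recognise the GC box (core GGGCGG). The CCAAT box, another common promoter element, is bound by the factor NF-Y. SP1, the founding member, and SP3 are found in nearly all tissues, SP2 is linked to CCAAT-containing promoters, and SP4 is best known in neurons. These 4 proteins carry glutamine-rich activation domains, which SP5 to SP9 lack. SP5 is a Wnt target in embryos, SP6 (epiprofin) acts in teeth and skin, SP7 (osterix) is required for bone-forming osteoblasts, and SP8 and SP9 act in limb buds and the developing forebrain. A G4 forms when 4 runs of guanines on a strand fold into stacked tetrads, and GC boxes can supply such runs.

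The glutamine-rich subgroup and the rest of the family differed in their lists. SP1, SP2, SP3 and SP4 each had a high confidence interval in both lines, whereas none of SP5 to SP9 had. SP6 had a high confidence interval in K562 and a lower confidence interval in HepG2, and SP5 had the reverse, a high confidence interval in HepG2 and lower confidence intervals in K562. SP8 and SP9 had lower confidence intervals in K562 and none in HepG2, and SP7 had no interval in any list. In total, 5 of 9 genes had a high confidence interval in K562, 5 of 9 in HepG2 and 4 of 9 in both, and by the same rule 37.9%, 34.5% and 26.3% of all protein-coding genes did. A lower confidence interval was found at 8 of 9 genes in K562 and 6 of 9 in HepG2, against 54.0% and 57.6% of all genes. The pattern of SP6 was shared by 8.71% of all genes, that of SP5 by 4.95%, that of SP8 and SP9 by 4.20% and that of SP7 by 35.3%. With 9 members, these shares are a description of the family, and no share was tested. A gene without an interval had no peak in enough replicates, which does not show that no G4 was present. A difference between the lines in the cells and a difference in how the lists were made cannot be told apart here. The lists differ in replicate numbers and threshold, and earlier data were also considered for K562.

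**Figure D1:**
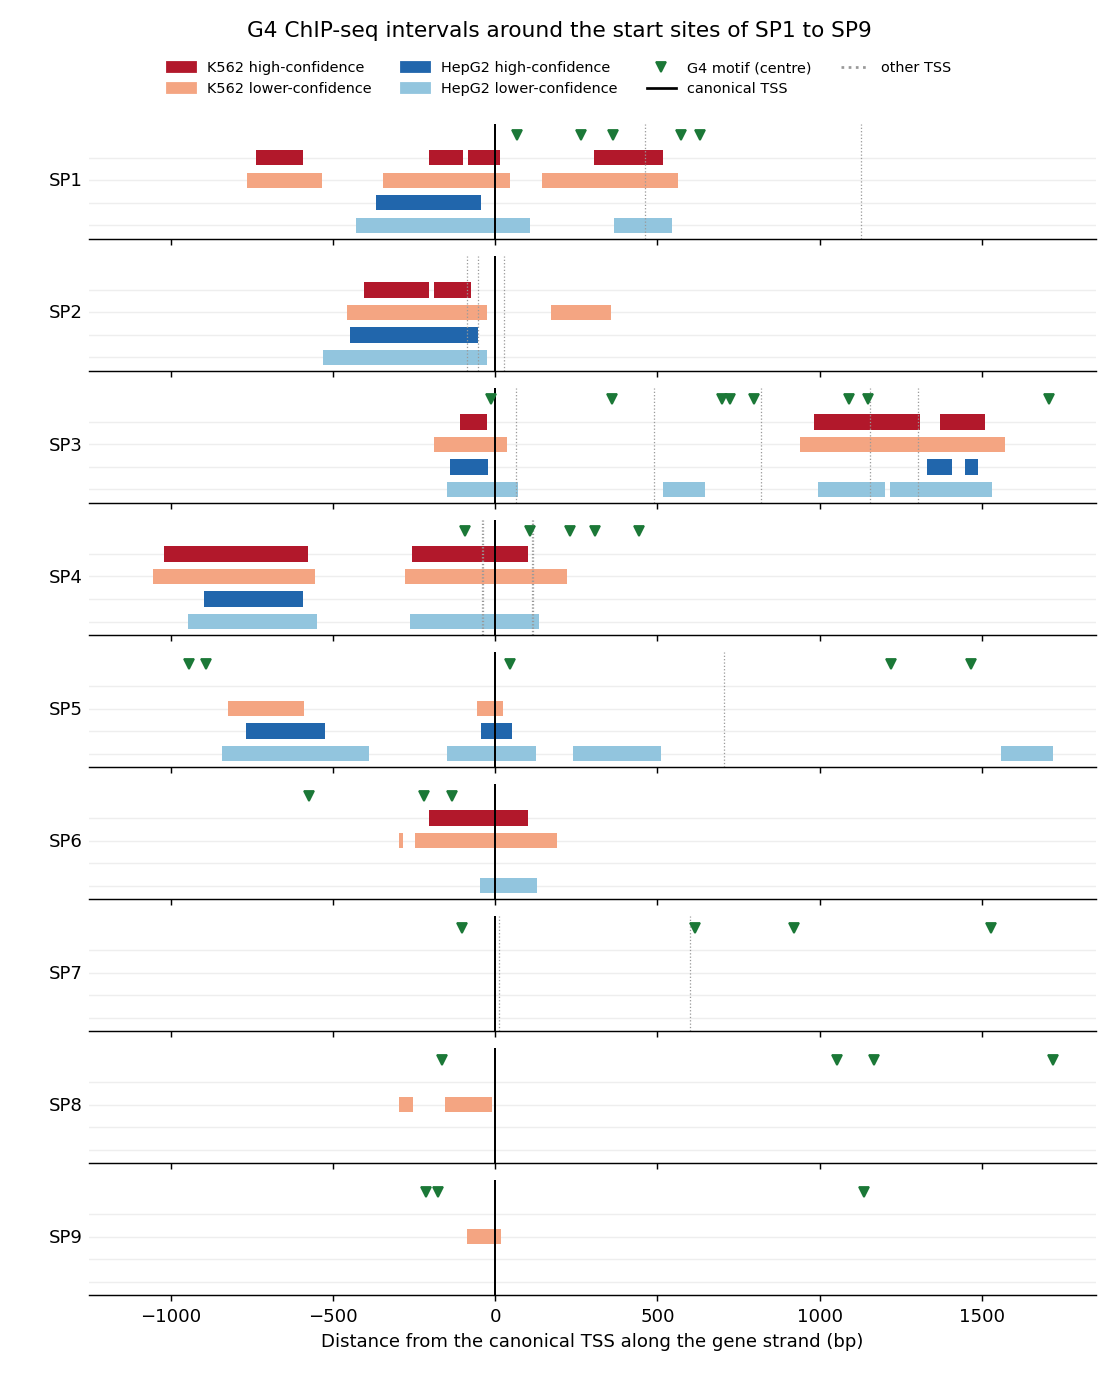
Intervals of the 4 lists (coloured bars, 1 row per list) around the canonical TSS of each SP gene, with distance along the gene strand in bp on the horizontal axis, G4 motifs as green triangles and the other annotated TSSs as dotted lines. High confidence bars of both lines appear at SP1 to SP4, SP5 and SP6 each have them in a single line, SP8 and SP9 have K562 lower confidence bars and SP7 has none.

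Every high confidence interval at the family touched the 1 kb upstream of an own TSS, 12 of 12 in K562 and 8 of 8 in HepG2, and every centre lay within 758 bp of the nearest own TSS. Over the whole lists, 75.6% of K562 and 64.6% of HepG2 high confidence intervals touched the 1 kb upstream of a coding TSS. The whole lists also hold intervals far from genes, which the rule for the members leaves out. Among list intervals in the body or upstream 1 kb of any coding gene, the shares were 85.5% and 76.5%. Counted by gene, 5 of 9 members had a high confidence interval upstream of a TSS in K562 and 5 of 9 in HepG2, and 34.6% and 29.6% of all genes did. The centre lay upstream of the nearest own TSS for 11 of 12 intervals in K562 and 5 of 8 in HepG2. That side was not counted over the whole lists, so the counts show no trait of the family and no difference between the lines. No high confidence interval was found deep in a gene body, although SP3 and SP4 span 84524 and 86780 bp.

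SP1 (chr12:53773960-53810230, plus strand, 3 TSSs) carried 4 K562 high confidence intervals but 1 in HepG2. Among all genes, 0.689% had 4 or more such intervals in K562. The most distal, chr12:53773224-53773368, was 145 bp wide and centred at -664 bp from the canonical TSS. No HepG2 interval of either list overlapped it. It held no G4 motif, meaning 4 stretches of 3 or more G parted by loops that are 1 to 7 bases long, read on both strands, and no GC box, but it held 3 CCAAT boxes. Its GC content was 57.2%, and 5.02% of the K562 high confidence list had a lower one. It is printed because it was the only K562 high confidence interval of the family without any HepG2 counterpart, with CCAAT boxes of either strand in capitals.
SP1 distal interval, chr12:53773224-53773368, plus strand: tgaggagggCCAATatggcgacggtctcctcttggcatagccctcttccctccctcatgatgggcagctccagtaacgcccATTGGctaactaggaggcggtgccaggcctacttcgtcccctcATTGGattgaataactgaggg

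Nearer the SP1 start, K562 had high confidence intervals at chr12:53773757-53773860 (104 bp) and chr12:53773877-53773975 (99 bp, spanning the canonical TSS), where HepG2 had chr12:53773593-53773916 (324 bp, centred at -206). The lines shared 144 bp, which was 70.9% of the K562 and 44.4% of the HepG2 high confidence sequence there. The GC content was 52.9% in the more distal of the K562 intervals and 54.6% in HepG2, low for both lists, and 69.7% in the K562 interval on the TSS, of which 16 bp were exon annotated as UTR. The fourth K562 interval, chr12:53774263-53774475, lay in the gene body and spanned the second TSS, with its centre at -54 from that TSS and 409 bp past the canonical one. It was the most GC-rich interval of the family (83.1%), with 8 GC boxes, a number reached by 3.44% of K562 high confidence intervals, and it held 1 G4 motif on the strand opposite to the gene. Of its 213 bp, 46 were exon, all annotated as UTR, and the rest was intron of another transcript. In HepG2 this place reached the lower confidence list alone, as chr12:53774327-53774504 (178 bp), which covered part of that motif. The lower confidence intervals of SP1 were wider, chr12:53773194-53773427, chr12:53773613-53774006 and chr12:53774104-53774522 in K562 and chr12:53773531-53774066 (536 bp, the widest of the HepG2 lower confidence list at the family) around the canonical TSS in HepG2. The second HepG2 one was that at the inner TSS.

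SP2 (chr17:45973516-46006323, plus strand, 4 TSSs) was covered at the same place in both lines. K562 had high confidence intervals at chr17:45973197-45973398 (202 bp) and chr17:45973414-45973527 (114 bp). HepG2 had chr17:45973154-45973549 (396 bp), which contained both, so that all 316 bp of the K562 sequence and 79.8% of the HepG2 interval were shared. The lower confidence intervals chr17:45973147-45973575 in K562 (429 bp) and chr17:45973072-45973575 in HepG2 (504 bp) ended at the same base. This stretch had the lowest GC content of the family, 52.0% and 50.9% in the K562 intervals and 51.3% in HepG2, where 1.15%, 0.739% and 6.60% of the respective lists were lower. No G4 motif lay within 1 kb of the canonical TSS, and the 3 motifs of the SP2 window lay outside every interval. The HepG2 interval instead held 9 CCAAT boxes and 1 GC box, and 0.0456% of HepG2 high confidence intervals (4 of 8776) held as many CCAAT boxes. It was also wider than 94.3% of its list, and the counts of boxes were not adjusted for width. The narrower K562 high confidence intervals held 4 and 3 CCAAT boxes. In the window from 250 bases before to 50 after the canonical TSS, SP2 had 8 CCAAT boxes, counted on both strands, so that a palindromic overlap such as CCAATTGG counts for each strand, and 1 of 20163 genes, SP2 itself, reached that number. The wider K562 interval is printed because it was high confidence in both lines without a G4 motif, with CCAAT and GC boxes of either strand in capitals.
SP2 upstream interval, chr17:45973197-45973398, plus strand: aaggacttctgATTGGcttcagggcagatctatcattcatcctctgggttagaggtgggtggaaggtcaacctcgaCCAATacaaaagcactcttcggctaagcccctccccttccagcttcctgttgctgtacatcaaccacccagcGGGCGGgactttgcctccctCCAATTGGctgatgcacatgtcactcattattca

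The interval is shared with SP2-DT, a transcript that starts nearby and runs the other way, and intervals have no strand, so the signal cannot be assigned to either gene. A second SP2 stretch, chr17:45973774-45973957 (184 bp), lay in the first intron in the K562 lower confidence list alone. Its GC content was 82.1% and it held 6 GC boxes, the opposite composition to the upstream stretch.

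SP3 (chr2:174745578-174830101, minus strand, 11 TSSs) had 3 high confidence intervals in each line, at 2 places. In HepG2, 3 or more such intervals were found at 2.24% of all genes. The place at the canonical TSS was nearly the same in both lines: chr2:174830128-174830208 in K562 (81 bp, centred at -67) lay wholly inside chr2:174830123-174830241 in HepG2 (119 bp, centred at -81). The K562 interval held no run of 3 or more G on either strand, no GC box and 1 CCAAT box, and it is printed for that reason, in the orientation of the gene, with the CCAAT box in capitals.
SP3 interval at the canonical TSS, chr2:174830128-174830208, minus strand: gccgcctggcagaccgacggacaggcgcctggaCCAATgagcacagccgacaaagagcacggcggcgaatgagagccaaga

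A G4 motif of the gene strand, centred at -13, lay beside the K562 interval and was partly covered by the HepG2 one. The lower confidence intervals of both lines contained that motif, chr2:174830067-174830289 in K562 and chr2:174830031-174830249 in HepG2. The second place lay 940 to 1569 bp past the canonical TSS, around internal TSSs. There K562 had chr2:174828792-174829118 (327 bp, 79.8% GC) and chr2:174828592-174828729 (138 bp, 69.6% GC, wholly exon and UTR in some transcript). HepG2 had chr2:174828694-174828770 (77 bp) and chr2:174828615-174828655 (41 bp), the narrowest high confidence interval of the family. Both HepG2 intervals fell on the narrower K562 interval or the gap beside it, 77 bp were shared, and this was 16.6% of the K562 and 65.3% of the HepG2 high confidence sequence at that place. The wide K562 interval held 26 runs of 3 or more G on the strand opposite to the gene against 8 on the gene strand, and 2 G4 motifs, both on the opposite strand. In HepG2 these motifs lay in the lower confidence interval chr2:174828900-174829107 (208 bp). Around this place the lower confidence intervals were chr2:174828532-174829161 in K562 (630 bp, the widest interval of the family) and, next to the one named, chr2:174828572-174828884 in HepG2 (313 bp). A further HepG2 lower confidence interval, chr2:174829454-174829584 (131 bp), had no K562 counterpart.

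SP4 (chr7:21467661-21554440, plus strand, 5 TSSs) had the longest K562 high confidence cover of the family, 801 bp in 2 intervals, against 304 bp in 1 interval in HepG2. The distal K562 interval chr7:21466682-21467124 (443 bp, the widest high confidence interval of the family in K562) contained the whole HepG2 interval chr7:21466805-21467108 (304 bp, 69.7% GC), which was centred at -745 from the canonical and -705 from the nearest TSS. Neither held a G4 motif. The K562 interval counted 10 runs of 3 or more G on the gene strand and 18 on the other, and nowhere did 4 of them follow each other with loops of 1 to 7 bases. The middle of the HepG2 interval, 100 bp to each side of its centre, is printed to show such runs, with stretches of 3 or more G or C in capitals.
SP4 distal interval, central window, chr7:21466856-21467056, plus strand: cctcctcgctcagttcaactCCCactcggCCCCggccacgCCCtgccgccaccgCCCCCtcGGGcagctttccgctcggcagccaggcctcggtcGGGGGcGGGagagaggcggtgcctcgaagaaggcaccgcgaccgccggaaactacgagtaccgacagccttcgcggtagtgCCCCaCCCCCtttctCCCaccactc

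The second K562 high confidence interval, chr7:21467444-21467801 (358 bp, 76.0% GC, 6 GC boxes), spanned the canonical TSS, included 141 bp of exon annotated as UTR, and held a G4 motif of the opposite strand at -94. In HepG2 the same place was in the lower confidence list alone, as chr7:21467439-21467834 (396 bp). It contained the same motif. The K562 lower confidence interval there was wider, chr7:21467424-21467921 (498 bp), and the HepG2 one covered 79.5% of it. The other lower confidence intervals of SP4 were chr7:21466646-21467144 in K562 and chr7:21466756-21467150 in HepG2.

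Across the family, 5 G4 motifs lay whole inside a K562 high confidence interval, all on the strand opposite to the gene. Of these, 2 lay in a single SP3 interval, and the strand of such motifs was not counted over all genes, so no preference for a strand follows. Those of SP1, SP3 and SP4 are printed on their own strand, named by gene and distance of the centre from the canonical TSS in bp, with runs of 3 or more G in capitals.
SP1 motif at 362, chr12:53774313-53774331, minus strand: GGGGcGGGcaGGGGGcGGG
SP3 motif at 1148, chr2:174828940-174828966, plus strand: GGGcgaggcGGGGcggcgcGGGcGGGG
SP3 motif at 1089, chr2:174829000-174829025, plus strand: GGGGcGGGGGGaGGGGagtggaGGGG
SP4 motif at -94, chr7:21467597-21467617, minus strand: GGGtcGGGGGcGGGGccaGGG
The 5 motifs, that of SP6 included, were 19 to 27 bases long. None of them lay inside a HepG2 high confidence interval, and 3 of them, both of SP3 and that of SP4, lay inside a HepG2 lower confidence interval. A core of the GC box stood inside each of them.

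SP5 (chr2:171571847-171574588, plus strand, 2 TSSs) was the gene with the reverse order of the lines. HepG2 had 2 high confidence intervals, chr2:171571079-171571321 (243 bp, centred at -647) and chr2:171571803-171571899 (97 bp, centred at 4), and K562 had lower confidence intervals at the same places, chr2:171571024-171571258 (235 bp) and chr2:171571791-171571870 (80 bp). The nearest K562 high confidence interval was 52643 bp from the SP5 window. The HepG2 lower confidence list added chr2:171572086-171572358 (273 bp, in an intron) and chr2:171573405-171573566 (162 bp, in a coding exon), and its interval around the distal place was chr2:171571006-171571457 (452 bp). With the one at the TSS it covered 1162 bp in 4 intervals, the longest cover of any list at any member, beside 315 bp in 2 intervals in K562. The distal HepG2 interval had a GC content of 79.8%, above 96.8% of its list, with 6 GC boxes and no G4 motif, and it is printed with its GC boxes in capitals.
SP5 distal interval, chr2:171571079-171571321, plus strand: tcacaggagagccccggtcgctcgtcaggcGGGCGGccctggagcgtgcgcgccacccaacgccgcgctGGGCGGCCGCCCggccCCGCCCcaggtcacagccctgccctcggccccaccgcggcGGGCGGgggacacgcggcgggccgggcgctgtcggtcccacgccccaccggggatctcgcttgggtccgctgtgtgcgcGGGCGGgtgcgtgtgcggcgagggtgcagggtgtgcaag

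At the SP5 start, a motif of the gene strand centred at 45 bp past the TSS reached beyond the end of the HepG2 high confidence interval and lay whole in the HepG2 lower confidence interval chr2:171571699-171571973 (275 bp). The SP5 intervals are shared with ERICH2-DT, and those upstream of or at the TSS also with LINC01124.

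SP6 (chr17:45922274-45933240, minus strand, 2 TSSs) had 1 high confidence interval, in K562, chr17:45928430-45928734 (305 bp, 72.5% GC, 6 GC boxes), spanning the canonical TSS. It held 1 G4 motif, upstream of that TSS and on the opposite strand. HepG2 had the lower confidence interval chr17:45928401-45928577 (177 bp), which lay across the TSS and ended short of that motif. The nearest HepG2 high confidence interval was 3478 bp from the SP6 window. The K562 lower confidence list had chr17:45928341-45928775 (435 bp), with a second motif at -218, and a fragment of 11 bp, chr17:45928815-45928825, the narrowest interval of the family.

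SP8 and SP9 had their few intervals in the K562 lower confidence list. SP8 (chr7:20821899-20826505, minus strand) had chr7:20826516-20826660 (145 bp, 74.5% GC, centred at -83) and chr7:20826758-20826801 (44 bp), and SP9 (chr2:175199682-175203228, plus strand) had chr2:175199595-175199700 (106 bp, 67.0% GC, centred at -35). For HepG2, the nearest interval of either list was 562062 bp from the SP8 window and 56958 bp from that of SP9. SP7 (chr12:53720359-53739099, minus strand, 4 TSSs) had none, and in each list the nearest interval lay 1502 to 1597 bp past its 3' end. All 3 genes nevertheless had motifs close to their canonical TSS. They are printed as motifs not whole inside any high confidence interval, on their own strand, with runs of 3 or more G in capitals, beside the motif at the start of SP3.
SP7 motif at -101, chr12:53730229-53730250, plus strand: GGGGGGGGatGGGGGGttGGGG
SP8 motif at -164, chr7:20826656-20826683, plus strand: GGGGGagtGGGagcggaGGGGGcGGGGG
SP9 motif at -214, chr2:175199456-175199481, minus strand: GGGGGGGGGGcgaGGGcGGGctGGGG
SP9 motif at -177, chr2:175199490-175199520, minus strand: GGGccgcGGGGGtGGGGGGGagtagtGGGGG
SP3 motif at -13, chr2:174830104-174830124, minus strand: GGGGcGGGagttccGGGcGGG
The motif of SP8 was partly covered by its K562 interval, and those of SP9 and SP7 were not touched by any list. That of SP3 lay inside lower confidence intervals of both lines and was partly covered by a HepG2 high confidence interval. The SP7 motif counts as a motif because its run of 8 G can be read as 2 runs with a loop.

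**Figure D2:**
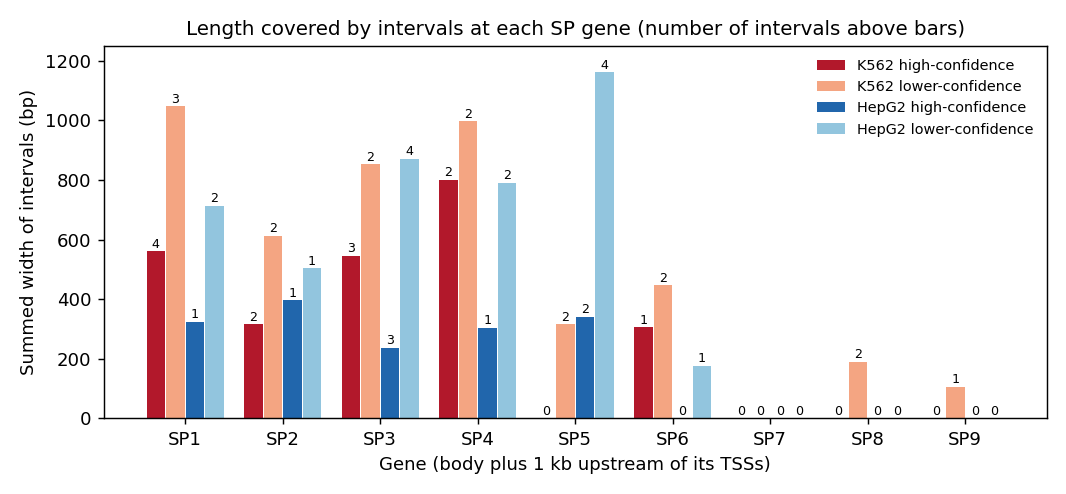
Summed width in bp of the intervals of each list at each SP gene (bars), with the number of intervals printed above. K562 high confidence cover exceeded that of HepG2 at SP1 (561 against 324 bp), SP3 (546 against 237 bp) and SP4 (801 against 304 bp), and SP2 (316 against 396 bp) went the other way.

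Between the lines, the high confidence lists covered unequal lengths at the same genes. SP1 had 561 bp in K562 and 324 bp in HepG2, SP3 had 546 and 237 bp, and SP4 had 801 and 304 bp. SP2 had 316 bp in K562 and 396 bp in HepG2. In the lower confidence lists the lines were closer at SP3, with 853 and 871 bp, and at SP4, with 997 and 791 bp. SP2 had 613 bp in K562 and 504 bp in HepG2, but the K562 sum includes the intronic stretch of 184 bp without a HepG2 counterpart. At the upstream place of SP2, HepG2 stayed wider, with 504 bp against 429 bp. At SP1 the lower confidence cover was 1047 bp in K562 and 714 bp in HepG2. Several high confidence intervals in a gene were common in the glutamine-rich subgroup in K562 alone. There SP1 to SP4 each had 2 or more, as had 8.71% of all genes. In HepG2, SP1, SP2 and SP4 had 1 each. SP3 and SP5, the latter outside that subgroup, had 2 or more in HepG2, as had 7.96% of all genes. Several intervals in a gene were often pieces of a single wider lower confidence interval. All high confidence intervals at the family lay inside a lower confidence interval of the same line, as did 100% of each whole list. This follows from the lower minimum of replicates and is no result about the family. The 12 in K562 fell into 9 places and the 8 in HepG2 into 7, a count not made over the whole lists.

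When overlapping intervals of all lists were joined, the family had 19 places. High confidence intervals of both lines were present at 5 of them, of K562 alone at 4, of HepG2 alone at 2, and 8 places were known from lower confidence intervals alone. Places were not joined over all genes, so these counts have no share beside them and show no trait of the family. Of the 12 K562 high confidence intervals, 7 overlapped a HepG2 high confidence interval and 11 a HepG2 lower confidence interval. Of the 8 in HepG2, 6 overlapped a K562 high confidence interval and 8 a lower confidence interval. These counts rest on an overlap of at least 1 bp, and where 50% of both intervals had to be shared, 3 in K562 and 3 in HepG2 overlapped a high confidence interval of the other line. By at least 1 bp, 51.1% of K562 and 53.9% of HepG2 high confidence intervals of the whole lists overlapped the other high confidence list. For the other lower confidence list these shares were 75.6% and 67.1%, with the mitochondrial genome left out throughout. The 50% rule was not applied to the whole lists, so its counts have no share beside them. The intervals at the 2 SP5 places overlapped in the lower confidence lists by all 235 and 80 bp of the K562 intervals. Some places of SP3, SP4 and SP9 are shared with genes known only by an Ensembl identifier.

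**Figure D3:**
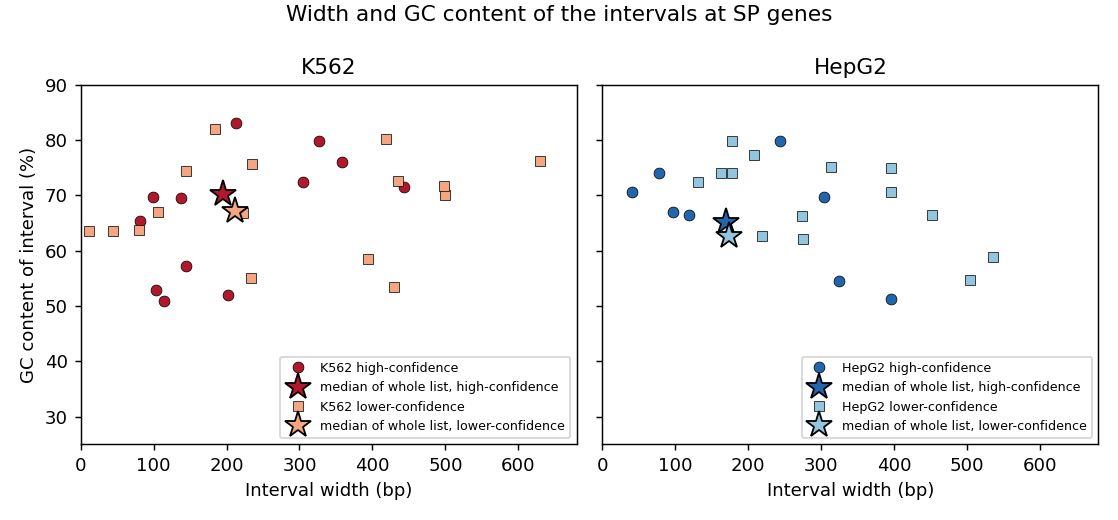
GC content in percent against width in bp for each interval at the SP genes, by line, with stars at the medians of the whole lists. High confidence intervals (circles) spread from 50.9% to 83.1% GC in K562 and from 51.3% to 79.8% in HepG2.

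The intervals of the family were spread widely in width and composition. K562 high confidence intervals were 81 to 443 bp wide with a median of 174 bp, where the list had a median of 195 bp, and those of HepG2 were 41 to 396 bp wide with a median of 181 bp against 169 bp. The median GC content was 69.7% in K562 and 68.3% in HepG2, against 70.3% and 65.2% in the lists. The low end was formed by SP1 and SP2, and the high end by SP1 past its canonical TSS, by SP3 and, in HepG2, by SP5. SP1 therefore had intervals at both ends of the range within 1 gene.

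G4 motifs were found in 4 of 12 K562 high confidence intervals, at SP1, SP3, SP4 and SP6, and in none of 8 in HepG2. In the lists, 32.6% of K562 and 20.6% of HepG2 high confidence intervals held a motif. With runs of at least 2 G, 9 of 12 and 7 of 8 intervals held a motif, against 89.6% and 79.6% of the lists. With loops of up to 12 bases, 7 of 12 and 4 of 8 did, a setting for which the lists were not counted. The count of 0 in HepG2 therefore depends on the strict motif. In windows reaching 100 bp to each side of the interval centre, motifs occurred in 5 of 12 and 2 of 8, against 34.2% and 22.7% of the lists.

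A GC box was present in 9 of 12 K562 and 6 of 8 HepG2 high confidence intervals, against 69.6% and 51.3% of the lists. In the same windows around the centres, GC boxes were present in 11 of 12 and 7 of 8, against 74.5% and 57.2%, and CCAAT boxes in 7 of 12 and 4 of 8, against 31.1% and 35.1%. The CCAAT boxes were at SP1, SP2 and SP3 in both lines. Windows of neighbouring intervals overlap at SP1, SP2 and SP3, so these counts are not of independent stretches.

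**Figure D4:**
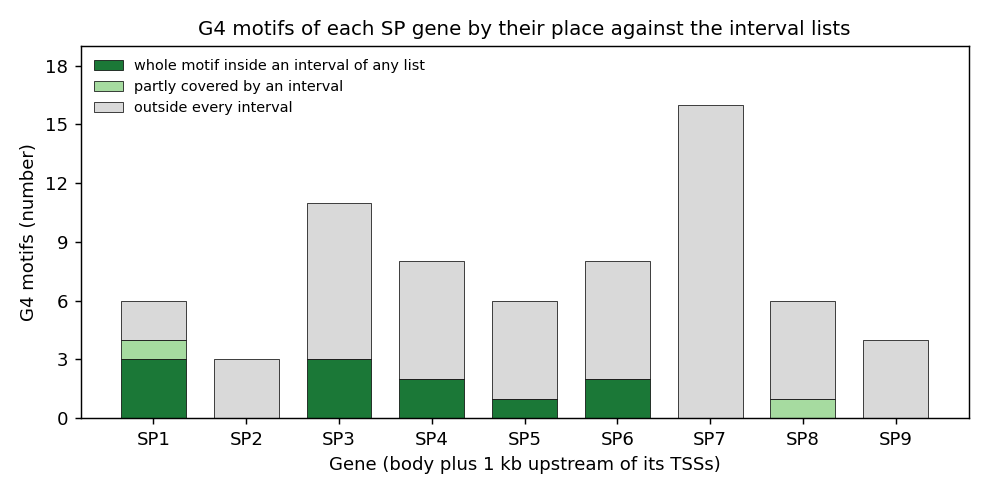
Number of G4 motifs in the body and upstream 1 kb of each SP gene, stacked by whether the whole motif lay inside an interval of any list, was partly covered, or lay outside every interval. SP7 had the most motifs, 16, and none of them was covered.

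Seen from the motifs, most of those at the family had no interval. Of 68 motifs in the windows of the 9 genes, 11 lay whole inside an interval of some list, 2 were partly covered and 55 lay outside every interval. The same count was not made over the windows of all genes, so it is not a trait of the family. SP7 had 16 motifs, more than any other member, and all lay outside. SP3 had 11 motifs with 3 inside an interval, SP4 and SP6 had 8 with 2 inside, and SP1 had 6 with 3 inside. SP2 had 3 motifs, the fewest, and none inside, despite its high confidence intervals in both lines. Within 1 kb of the canonical TSS there were 27 motifs, of which 3 lay inside K562 high confidence, 7 inside K562 lower confidence, 0 inside HepG2 high confidence and 5 inside HepG2 lower confidence intervals. Over all genes, 8.94%, 16.4%, 5.22% and 13.1% of 40691 such motifs did, so most motifs near a TSS lay outside each list there too.

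The TSS windows, from 250 bases before to 50 after the canonical TSS, had a GC box at all 9 members, against 60.9% of all genes. SP1, SP4 and SP6 had 4 GC boxes, SP8 had 3, SP2 and SP3 had 2, and SP5, SP7 and SP9 had 1, where the median of all genes was 1. SP4 had the highest GC content (76.7%, above 89.5% of genes) and SP5 the lowest (52.3%, above 20.1%). SP7, without any interval, had 56.7%, and SP2, with high confidence intervals in both lines, had 58.0%. The distal intervals of SP1, SP4 and SP5 lie outside this window, and a link between GC content and intervals was not tested. G4 motifs were present in the windows of SP3, SP4, SP6, SP7, SP8 and SP9, and in 33.6% of those of all genes.

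Of 18 Kruppel-like factor genes, which encode the closest relatives of the SP proteins, 9 had a high confidence interval in K562, 7 in HepG2 and 6 in both, and 5 had no interval. Of 12 other zinc finger genes for proteins that bind GC-rich DNA, 6, 5 and 4 did, and 2 had no interval. The contrast inside the family, 4 of 4 genes of the glutamine-rich subgroup with high confidence intervals in both lines against 0 of 5 of the others, is a count over few genes and was not tested. Over the 4 lists together, SP3 had the most intervals of the family, 12, followed by SP1 with 10, and SP7 had none.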

How the data were processed

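G4 ChIP-seq of K562 and HepG2 was analysed from the 4 interval lists deposited by the authors. Per the study's methods, the authors used cutadapt for trimming, BWA for alignment to hg19, Picard and samtools for duplicate removal, MACS2 for peaks of each replicate and bedtools multiinter to merge the replicates. The deposited values are interval starts and ends in bp, without counts, heights or q-values, so the depth of each sample is unknown and the 8 and 9 replicates, technical replicates of fewer independent experiments, could not be compared. No test was run. A stretch needing support from several replicates is cut where support falls below the minimum, so that a peak can be deposited as several narrow pieces.

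Intervals were compared on GRCh37 with the GENCODE annotation, release 44 mapped to this build. The study used an earlier release. None of the intervals ran past a chromosome end (0 over 24 chromosomes). An interval belonged to a gene if it shared at least 1 bp with the gene body or the 1 kb upstream of any annotated TSS, and the canonical TSS is that of the transcript so tagged. Positions are 1-based and distances run along the gene strand. G4 motifs were 4 stretches of 3 or more G parted by loops that are 1 to 7 bases long, searched on both strands, and a long stretch of G may be read as 2. GC boxes (GGGCGG) and CCAAT boxes (CCAAT) were counted on both strands. Shares over all 20163 protein-coding genes, or over whole lists, stand beside the counts of members. Intervals of the mitochondrial genome had no sequence measured. All 9 members are named, and other genes only where they share an interval, and a further part of the rule and some sequences are not reported here. The members, the lists of related genes and the measures were chosen with earlier results of these data known. The sequences printed were chosen after their values were seen and were read from GRCh37.

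Overlap and motif functions were tested on simulated data, where 1000 overlap searches and 3000 motif searches equalled a direct search in 100% of cases. Alternatives were other overlap rules, upstream lengths, TSS sets, width minimums, joined intervals, motif definitions and definitions of shared intervals. No column of per-sample values was left unused (0). Input libraries, expression values and protein sequences were not analysed here. The scripts ran under Python 3.11.15 with matplotlib 3.10.9 and pysam 0.24.0, and the genome was indexed with samtools 1.23.1.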

Additional observations from a re-analysis of the deposited data

How the results depend on the processing

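The 13 counts of the report were recomputed under alternative settings, which gave 88 values over all counts together. Of these values, 68 equalled the count in the report and 80 stayed within 1.5 times of it. The counts of genes with an interval, and of intervals at the genes, stayed in that band under every overlap rule, upstream length, TSS set, width minimum and joining tried. With 500 bp upstream in place of 1 kb, SP genes with a HepG2 high confidence interval fell to 4 and those with one in both lines to 3, because the HepG2 interval of SP4 lies farther out. The counts of motifs moved most. With loops of up to 12 bases, 7 K562 and 4 HepG2 high confidence intervals held a motif, with runs of at least 2 G 9 and 7 did, and with a motif up to 50 bp outside the interval 2 in HepG2 did. Runs of at least 2 G gave a motif in 89.6% and 79.6% of the whole lists, which were not counted under the other settings. Where runs had to be parted by a base other than G, a setting chosen after seeing the data, the counts were 4 and 0 as in the report. When both intervals had to share at least 50% of their width, 3 K562 and 3 HepG2 high confidence intervals counted as shared, a rule not applied to the whole lists. With a lower confidence partner allowed and an overlap of at least 1 bp, 11 K562 ones did. No paired analysis was possible because the lists hold no values per replicate, and for the same reason no replicate could be left out. Depth is unknown, so its part in these counts was not tested. An interval missing from a list may be a peak seen in too few replicates.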
